A study of Mus musculus with 142 samples.

Results

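The genes described here are the Hox genes, the protein-coding genes of the 4 homeobox clusters of the mouse, followed through RNA-seq of cultured oligodendrocyte progenitor cells (OPCs). They were chosen by symbol alone, as a letter for the cluster and a number for the paralog group, with no measured value used. That gave 38 genes among the 54127 to which transcripts were assigned. In GRCm38, the assembly that mm10 names, cluster A lay on chromosome 6 from 52162417 to 52260880 with 10 of the genes, cluster B on chromosome 11 from 96194316 to 96368256 with 10, cluster C on chromosome 15 from 102921103 to 103036852 with 9, and cluster D on chromosome 2 from 74668310 to 74765142 with 9. The counts of 21 genes were high enough to be tested: 6 of cluster A, 7 of B, 3 of C and 5 of D. The other 17 are accounted for by their range.

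OPCs are the dividing precursors of the cells that make myelin. They came from mouse pups at P5 to P7, from brainstem or from dorsal telencephalon, which here took in cortex, corpus callosum and hippocampus. K27M pups carried Cre under the human GFAP promoter (AMGFAP-Cre in the labels, hGFAP-Cre in the methods) and a conditional H3f3a K27M allele, which Cre switches on in neural stem and progenitor cells, so that one of the genes for histone H3.3 made a protein with methionine at lysine 27. Controls were littermates. Endothelial cells and microglia were depleted on BSL1-coated plates, and OPCs were then taken on plates coated with anti-PDGFRa.

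Day 0 cells stood in proliferation medium with forskolin, CNTF, neurotrophin-3 and PDGF. Cells of days 1, 2 and 5 had spent that time in differentiation medium with forskolin, CNTF and thyroid hormone. Region, genotype and day made 16 groups of 8 or 9 wells, with 70 brainstem and 72 telencephalic wells, from 3 cultures numbered 38, 41 and 42 in each region and genotype, hence 12 culture lines. Each line came from litter tissue pooled by region and genotype, and wells of a line shared its cells. Tests over wells nonetheless count these wells as separate samples. A block for culture within its region takes constant differences between cultures out of their error. The calls of each comparison are given again on culture-summed counts. There the wells that a line gave on 1 day were added up, and n is 3 cultures. Comparisons of brainstem with telencephalon are fitted at culture 38 and leave the spread between cultures out of their error. The labels put telencephalic libraries in batches 1 and 2 and brainstem libraries in batches 3 and 4, so batch and region cannot be told apart. Culture 38 alone made up batch 3 of the brainstem, and cultures 41 and 42 made up batch 4.

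Hox genes encode homeodomain transcription factors that give cells of the embryo their position along the body axis. Within a cluster the genes at the 3′ end, with low paralog numbers, are used in the hindbrain, and genes further 5′ are used at successively more caudal levels of the spinal cord. The forebrain does not use them. Polycomb complexes, which place and read methylation of lysine 27 on histone H3, keep Hox genes silent where they are not in use, Trithorax proteins such as Kmt2a keep them active, and Hox proteins bind DNA together with Pbx and Meis proteins.

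H3f3a, the gene that carries the mutation, stood at 148 to 545 CPM (counts scaled to library size by TMM) with a median of 305 over 71 control wells, and at 359 to 765 with a median of 561 over 71 K27M wells. Counts per transcript do not show the changed codon itself. In its single-cell data the paper calls the rise of this gene in K27M cells artifactual. Its littermate controls had no Cre, so their conditional allele stayed off. Depth ran from 26.6 M to 455 M read pairs a library, where the second deepest had 84.7 M and the median was 46.9 M, and one small RNA transcript, Rn7s1-201, took 42.0% to 63.3% of the TPM (a level per length, scaled within each library) of each library. The summed CPM of midbrain and hindbrain identity genes averaged 86.2 to 131 in the brainstem groups and 8.12 to 31.0 in the telencephalic groups. The summed CPM of 8 OPC markers fell from 3643 and 4450 at day 0 to 1776 and 1959 at day 5 in K27M and control brainstem cells.

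Brainstem wells expressed Hox genes and telencephalic wells had almost none. The 38 genes together took 24.9 to 105 CPM in the 70 brainstem wells, with a median of 49.8, and 0.0166 to 1.80 CPM in the 72 telencephalic wells, with a median of 0.201. The lowest brainstem well stood above the highest telencephalic well. In counts, the brainstem wells held 214340 read pairs on Hox genes and the telencephalic wells 1009. In bulk RNA, fewer cells with Hox expression and less Hox RNA per cell cannot be told apart.

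No single Hox gene carried this difference. Hoxb2, a hindbrain gene of cluster B, had 19085 counts in brainstem wells and 32 in telencephalic wells. Hoxa3 and Hoxa4, genes of the caudal hindbrain, had 15715 and 16400 counts in brainstem against 59 and 18 in telencephalon. Hoxa6, whose usual place is the spinal cord, had 3279 counts in brainstem and none in telencephalon.

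In controls 18, 20, 17 and 20 of the 21 tested Hox genes were higher in brainstem at days 0, 1, 2 and 5 and none was lower, where 49%, 60.3%, 51.4% and 53% of the 19769 genes tested were called in either direction (edgeR, adjusted p under 0.05). On culture-summed counts 18, 20, 17 and 17 were higher, against 24.5%, 36.7%, 24.3% and 25.6% of 23003 genes. With culture as a block within its region, each region comparison is the fitted difference between the culture 38 lines, batch 3 against batch 1. The spread between cultures is thus left out of its error, on summed counts too. In K27M cells 20, 19, 20 and 18 were higher and none lower, against 40.5%, 44%, 42.7% and 48.9% of genes, and on summed counts 20, 18, 18 and 16 were higher, against 14.9%, 17.3%, 18% and 22.4%. Among these, Hoxa9 at day 0 was tested on summed counts alone. Hoxc8, also tested on summed counts alone, was the 1 gene called lower in K27M brainstem cells, at day 5, on few counts in either region.

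The wells of the 2 regions did not overlap for 14, 13, 13 and 17 of the Hox genes in controls and for 18, 18, 16 and 15 in K27M cells. Nearly all telencephalic values lay so low that the filter on low counts could be passed only through brainstem wells, so these counts describe the tested genes and lend no support of their own. Folds against a group near 0 depend on the value added to zero counts and are not given. Within culture 38 alone, the calls higher in brainstem were 18, 20, 17 and 19 in controls, and without culture 38 they were 16, 17, 15 and 15. In K27M cells the same counts were 18, 18, 17 and 17, and 20, 19, 18 and 15. The share of all genes called in these fits is not given here.

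Brainstem Hox expression ended at paralog group 8 or 9. The 17 genes not tested were Hoxa9, Hoxa10, Hoxa11 and Hoxa13, Hoxb1, Hoxb9 and Hoxb13, Hoxc8 to Hoxc13, and Hoxd10 to Hoxd13. Their highest group mean was 0.0280 TPM, and each had 5 to 160 counts over all brainstem wells and 6 to 56 over all telencephalic wells. Hoxb1, which the embryo uses in a single hindbrain segment, was among them, with 70 and 30 counts.

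Levels per length, in TPM, put cluster A first in controls at day 0. Hoxa5, best known from respiratory tract and brainstem development, averaged 3.79 ± 1.06 TPM (SD over 3 cultures, as for all group means here), Hoxa2, the most anterior Hox gene of the hindbrain, 3.51 ± 1.23, and Hoxa7, a trunk gene, 2.53 ± 2.72. Hoxa4 followed with 1.82 ± 0.629 and Hoxb2 with 1.57 ± 0.512. Neighbours in this order differed by less than the spread between cultures. Below 1 TPM stood Hoxa6 at 0.977 ± 0.879, Hoxa3 at 0.940 ± 0.351, Hoxd4 at 0.900 ± 0.0652, Hoxd8 at 0.752 ± 1.05, Hoxb3 at 0.612 ± 0.198 and Hoxd3 at 0.591 ± 0.390. Hoxc4, the highest gene of cluster C in K27M cells, averaged 0.00504 ± 0.00353 TPM in these controls. The SD of Hoxa7, Hoxd8 and Hoxa6 was close to the mean or above it, unlike that of Hoxa5, Hoxa2 or Hoxd4.

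**Figure D1:**
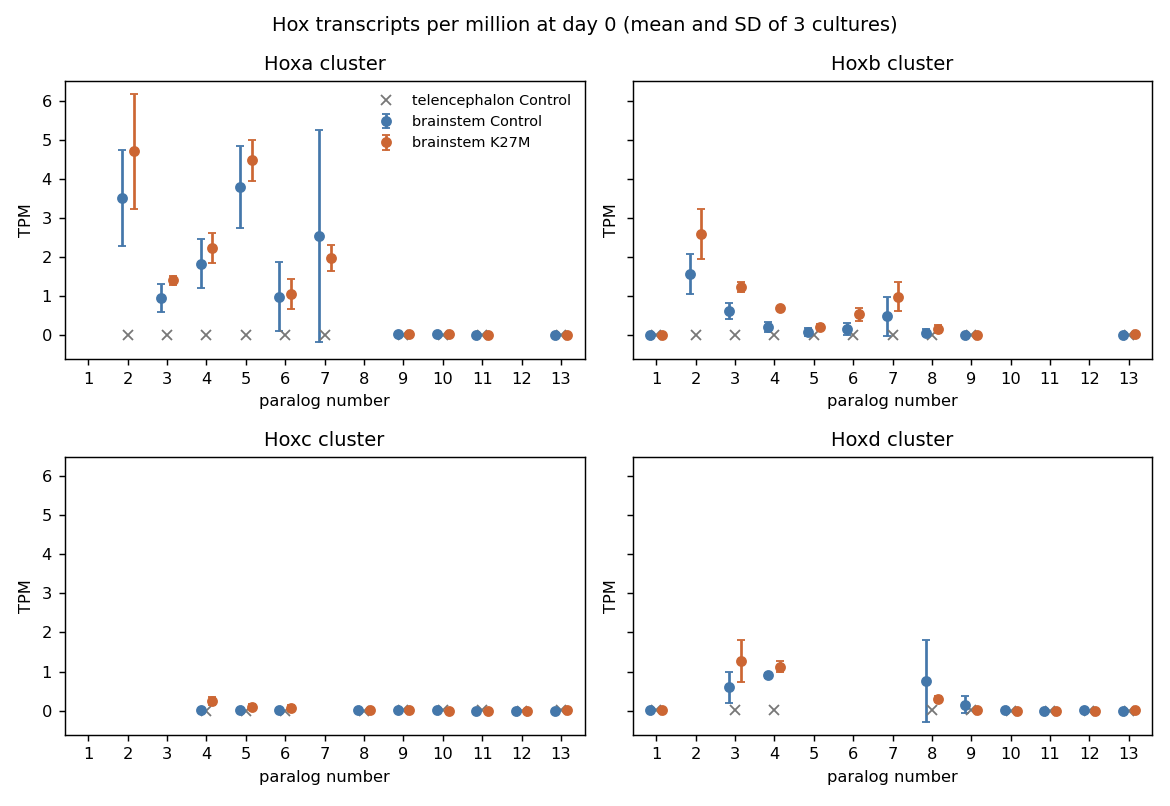
Level of each Hox gene at day 0 in TPM, by cluster and paralog number, as the mean and SD of 3 cultures for telencephalon control (crosses), brainstem control (blue) and brainstem K27M (orange). Hoxa2 and Hoxa5 stand highest in brainstem controls, at 3.51 and 3.79 TPM, telencephalic values lie at the base line, and cluster C lies near it in brainstem controls.

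The clusters kept unequal shares of the summed Hox TPM. In control brainstem cells cluster A took 71.2% ± 1.04 at day 0 and 55.7% ± 5.24 at day 5, cluster D 12.2% ± 1.33 and 26.8% ± 7.15, and cluster B 16.4% ± 0.958 and 16.1% ± 3.07. In K27M brainstem cells cluster A took 62.6% ± 1.25 and 52.3% ± 1.08, cluster D 10.6% ± 1.99 and 24.4% ± 0.956, and cluster B 25.1% ± 1.42 and 22.0% ± 0.671. Cluster B thus had the larger share in K27M cells at both ends of the course, and its SD ranges did not meet. Cluster C stayed at 0.0757% to 1.44% in controls and 1.25% to 1.88% in K27M cells.

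By paralog group, genes 6 to 9 took 23.6% ± 18.4, 36.4% ± 26.2, 27.3% ± 22.8 and 22.8% ± 17.6 of the control sum at days 0, 1, 2 and 5, and 20.1% ± 6.03, 17.0% ± 4.35, 14.3% ± 5.46 and 7.38% ± 2.09 of the K27M sum. The control SD shows how far its 3 cultures stood apart. In control culture 42 the share was 42.7% to 51.5% on the 4 days, in control culture 41 it was 5.91% to 10.9%, and in control culture 38 it was 55.8% at day 1 and 14.5% to 24.3% on the other days. K27M cultures ranged from 5.24% to 25.6%, within the range of the controls but for the lowest value.

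**Figure D2:**
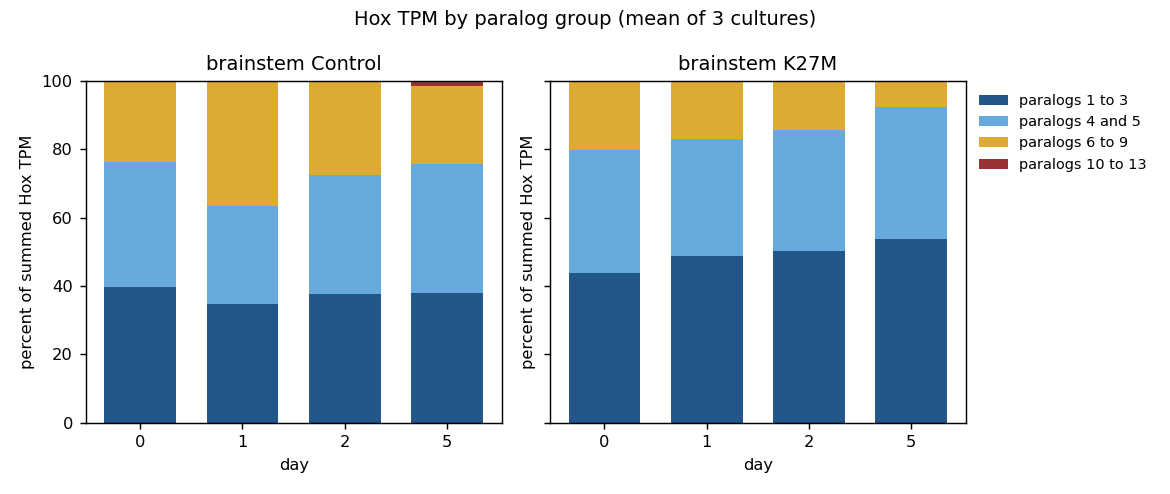
Percent of the summed Hox TPM held by each paralog group on each day in control and K27M brainstem cells, as stacked bars of group means. The part of paralogs 6 to 9 shrinks to 7.38% at day 5 in K27M cells and stays at 22.8% in controls, whose cultures differ widely.

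Over wells, the anterior Hox genes called between genotypes were all higher in K27M brainstem cells, and the more posterior genes went both ways. On summed counts 0, 0, 2 and 3 of the 6 tested genes of paralog groups 1 to 3 were higher. K27M wells were at passage 1 to 6 and control wells at passage 3 to 8, and the part of passage is taken up below. At days 0, 1, 2 and 5, 13, 7, 12 and 11 of the 21 tested Hox genes were higher in K27M and 1, 5, 1 and 2 were lower, where 11.3%, 28.8%, 26.1% and 38.6% of all genes tested were called. On culture-summed counts 3, 1, 3 and 4 of 24 were higher and 0, 1, 1 and 3 lower, against 1.32%, 4.37%, 3.79% and 11.5%. The 3 lower on summed counts at day 5 were Hoxd9 and, tested on summed counts alone, Hoxa9 and Hoxc8. Hoxa9 and Hoxc8 had their highest group means, 0.0234 and 0.0266 TPM, in control brainstem cells at day 5. Their calls rest on few counts and lend no support. The median log2 fold change of the tested Hox genes was 0.87, 0.33, 0.66 and 0.50, and that of all genes tested 0.01, 0.03, -0.00 and -0.03. Hoxc4, Hoxc5 and Hoxd1 passed the filter on low counts through K27M wells and Hoxd9 through control wells, so their calls toward that side lend no support. Hoxc6 passed it through 6 K27M wells and 2 control wells together.

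The split between higher and lower rested on the culture at day 1. With culture 38 alone, 4 genes were higher and 8 lower at day 1, and without culture 38, 8 were higher and 1 was lower. On the other days culture 38 alone gave 12, 9 and 9 higher and 1 lower each time, and the other cultures gave 10, 10 and 8 higher and 1, 1 and 2 lower. The share of all genes called in these fits is not given here. Whether the shift at day 1 is particular to Hox genes is thus not shown.

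The calls are also given by paralog number. Of the 6 tested genes of paralog groups 1 to 3, 5, 3, 6 and 6 were higher in K27M at days 0, 1, 2 and 5 and none was lower. Of the 7 genes of groups 4 and 5, 4, 4, 5 and 5 were higher and none lower. Of the 8 tested genes of groups 6 to 9, 4, 0, 1 and 0 were higher and 1, 5, 1 and 2 lower. On summed counts groups 1 to 3 kept 0, 0, 2 and 3 genes higher, groups 4 and 5 kept 3, 1, 1 and 1, and groups 6 to 9 kept none higher and 0, 1, 1 and 1 lower. Those of groups 4 and 5 were Hoxc4 on each day, with Hoxb4 and Hoxc5 at day 0, and that of groups 6 to 9 was Hoxd9. Since the calls of Hoxc4, Hoxc5 and Hoxd9 lend no support, the summed counts of groups 4 to 9 rest on Hoxb4 alone beyond them and show no division by paralog number. Over wells, the calls of groups 1 to 3 at days 2 and 5 took in Hoxd1, which has the same limit.

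**Figure D3:**
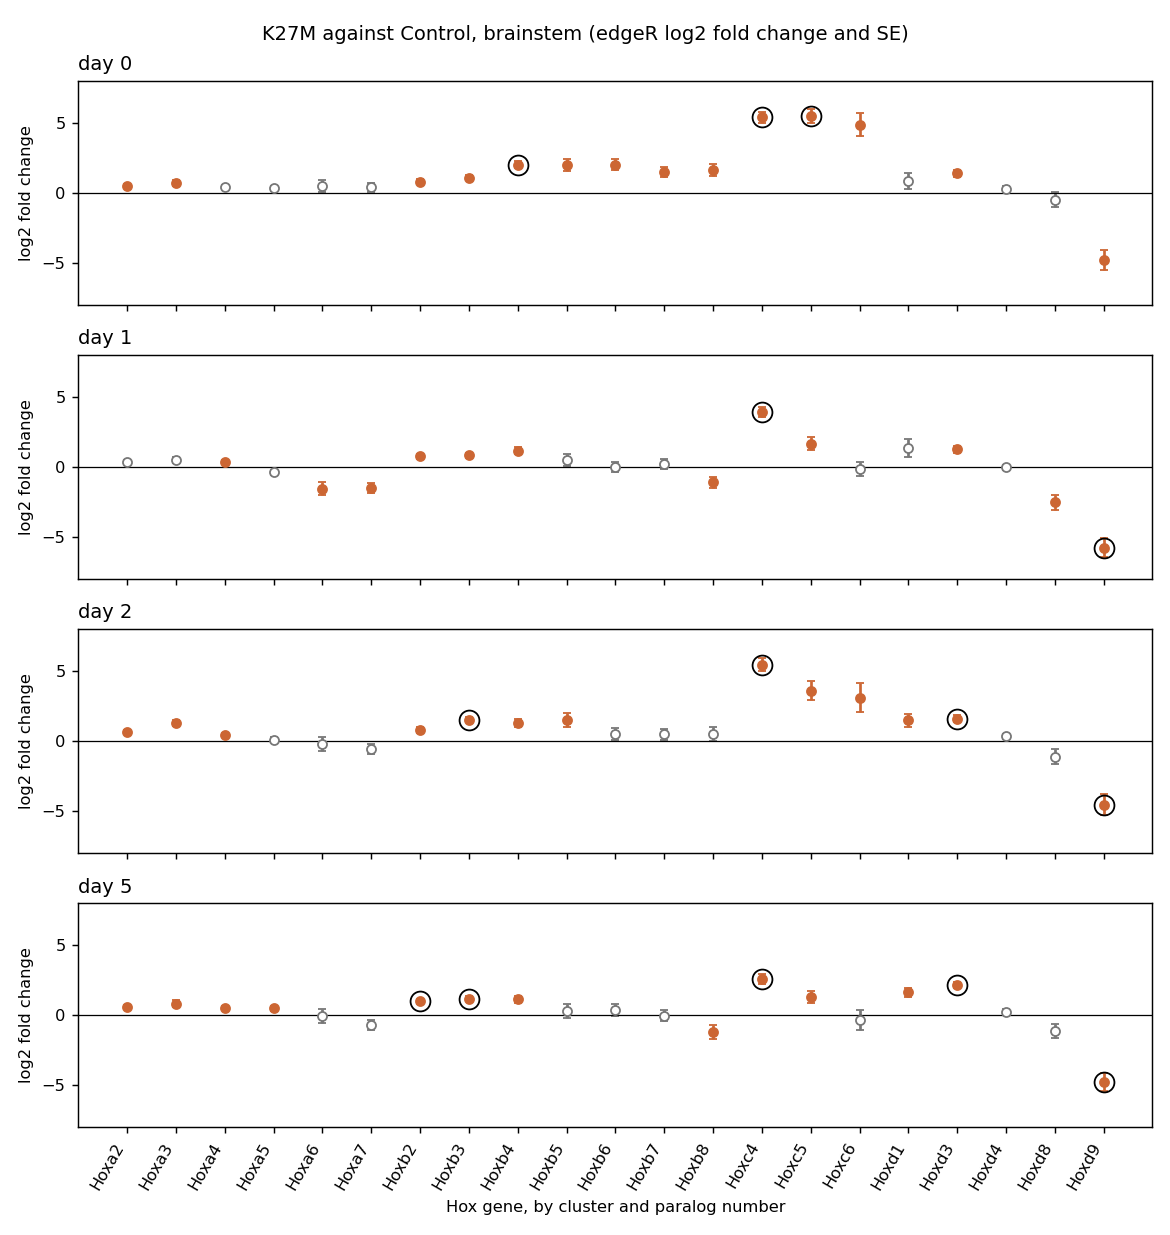
Log2 fold change of K27M against control brainstem cells for the 21 tested Hox genes on each day, with SE bars, ordered by cluster and paralog number. Filled orange points passed an adjusted p under 0.05 over wells, ringed points also passed on culture-summed counts and open grey points passed neither, and Hoxc4 is ringed on each day and Hoxd9 at days 1, 2 and 5.

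The paralogs 2 and 3 of cluster B rose most evenly. Hoxb3 (chromosome 11, 96323326 to 96347930, plus strand), a gene of the caudal hindbrain, stood at 1.66, 2.27 and 2.86 CPM (lowest, median and highest well) in controls at day 0 and at 3.58, 4.86 and 6.05 in K27M cells. At day 5 its wells stood at 0.978, 1.41 and 1.62 CPM in controls and at 2.53, 2.91 and 4.00 in K27M cells. K27M and control wells of Hoxb3 did not overlap on any of the 4 days, which held for no other Hox gene tested. The share of all genes whose wells do not overlap, between genotypes or regions, is not given here. Overlap therefore describes the wells of each gene and lends no support. Its log2 fold change was 1.08 (SE 0.17, adjusted p = 6.9e-07), 0.84 (0.18, 0.00013), 1.52 (0.18, 6.8e-11) and 1.18 (0.18, 2.3e-08) at days 0, 1, 2 and 5. On summed counts the adjusted p was 0.13, 0.15, 0.016 and 0.020.

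Hoxb2 (chromosome 11, 96350525 to 96354012, plus strand), which acts in the anterior hindbrain, stood at 2.88, 4.14 and 5.14 CPM in control wells at day 0 and at 5.82, 6.79 and 9.32 in K27M wells. At day 5 its wells stood at 1.57, 2.30 and 3.51 CPM and at 4.29, 4.89 and 5.24. The wells of the genotypes did not overlap at days 0 and 5 and overlapped at days 1 and 2. The log2 fold change of Hoxb2 was 0.80 (SE 0.18, adjusted p = 0.00074), 0.77 (0.19, 0.0012), 0.79 (0.19, 0.00080) and 0.99 (0.19, 6.3e-06), with an adjusted p on summed counts of 0.26, 0.11, 0.15 and 0.023. Without culture 42 the day 1 and day 2 values were 0.38 (adjusted p = 0.12) and 0.47 (0.088).

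Hoxb4 (chromosome 11, 96318267 to 96321638, plus strand), whose front edge lies in the caudal hindbrain, was singled out after its values were seen, since its level stayed under 1 TPM. It stood at 0.260, 0.771 and 1.69 CPM in control wells at day 0 and at 2.74, 2.93 and 3.43 in K27M wells, with no overlap. K27M lines lay close together, at 2.88, 3.16 and 2.96 CPM for cultures 38, 41 and 42, and control lines lay at 0.755, 0.350 and 1.35. The log2 fold change of Hoxb4 was 2.01 (SE 0.26, adjusted p = 9.9e-10, 0.020 on summed counts) at day 0 and 1.18 (0.27, 0.00029), 1.30 (0.27, 5.8e-05) and 1.13 (0.26, 0.00017) at days 1, 2 and 5, with 0.14, 0.10 and 0.090 on summed counts. Without culture 41, the lowest control line, the values were 0.48 (adjusted p = 0.27), 0.76 (0.031) and 0.61 (0.070) on those 3 days.

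In cluster D Hoxd3 was called higher in K27M and its neighbour Hoxd4 was not, though the 2 genes share exon sequence. Hoxd3 (chromosome 2, 74711927 to 74748442, plus strand), a gene of neck vertebrae and caudal hindbrain, stood at 0.563, 1.44 and 2.11 CPM in control wells and at 1.72, 3.44 and 5.44 in K27M wells at day 0. At day 5 it stood at 0.382, 0.897 and 1.45 CPM in control wells and at 3.14, 4.13 and 4.90 in K27M wells. Its wells did not overlap at days 2 and 5. The log2 fold change of Hoxd3 was 1.40 (SE 0.24, adjusted p = 2.5e-06), 1.27 (0.25, 2.8e-05), 1.60 (0.25, 1.7e-07) and 2.16 (0.24, 9.5e-13), with 0.029 and 0.00099 on summed counts at days 2 and 5 and no call there at days 0 and 1. Without culture 42 the day 0 value was 0.89 (adjusted p = 0.023).

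Hoxd4 (chromosome 2, 74711929 to 74729160, plus strand) shares exon sequence on the same strand with Hoxd3 and with Gm28230, another annotated gene, which had 4661 counts. Hoxd3 overlaps Gm28230 too. The split of read pairs among them is uncertain, which limits the Hoxd3 values above as well. The transcript Hoxd4-202 took 55.6% of the Hoxd4 TPM in control and 86.6% in K27M brainstem cells. It stood at 1.73, 2.33 and 2.95 CPM in control wells and at 2.46, 2.76 and 3.44 in K27M wells at day 0, with the ranges overlapping. Its log2 fold change of 0.30, -0.01, 0.36 and 0.24 at the 4 days did not pass the test (adjusted p = 0.30, 0.97, 0.14 and 0.30).

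Hoxd1 (chromosome 2, 74762980 to 74765142, plus strand), a gene of early hindbrain and sensory neurons, was nearly absent until day 5 and was singled out after its values were seen. Control wells held 11, 6, 23 and 241 counts in all at days 0, 1, 2 and 5, and K27M wells held 23, 27, 79 and 532. At day 5 its wells stood at 0.156, 0.331 and 0.528 CPM in controls and at 0.876, 0.956 and 1.42 in K27M cells, without overlap. It was called at day 2 too (adjusted p = 0.010), a call lost without culture 41 (0.083). The log2 fold change of Hoxd1 at day 5 was 1.64 (SE 0.34, adjusted p = 3.7e-05, 0.057 on summed counts). Hoxd1 reached the level of the filter on low counts in 12 K27M wells, 6 control wells and no telencephalic well. It was thus tested through its K27M wells, so its calls lend no support and the counts stand as a description.

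Hoxc4 (chromosome 15, 103018934 to 103036852, plus strand), the most 3′ gene of cluster C and a gene of the cervical level, was singled out after its values were seen. Control wells held 8, 18, 4 and 45 counts of it in all at days 0, 1, 2 and 5, and K27M wells held 468, 454, 250 and 237. At day 0 the K27M wells stood at 0.356, 0.624 and 1.64 CPM and the control wells at 0, 0.0143 and 0.0654. The wells did not overlap at days 0, 1 and 2, and at day 5 a control well at 0.280 CPM reached into the K27M range of 0.247 to 0.907. K27M lines of culture 41 were the highest each day, at 1.25 CPM at day 0 against 0.527 and 0.703 in cultures 38 and 42. Hoxc4 reached the level of the filter on low counts in 35 K27M wells and 1 control well, so that its calls, made on each day over wells and on summed counts, lend no support and the counts stand as a description.

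Hoxc5, its 5′ neighbour, followed at lower level, with 4, 21, 2 and 30 counts in control wells and 283, 107, 43 and 86 in K27M wells. It reached the filter level in 16 K27M wells and 0 control wells, and its calls, on each day over wells and at day 0 on summed counts, carry the same limit. Its annotated exons overlap those of Hoxc10, which had 17 counts in all brainstem wells. Hoxc6 had 1, 36, 1 and 21 counts in control wells and 84, 61, 17 and 12 in K27M wells, and reached the filter level in 6 K27M wells and 2 control wells. Both genes, like Hoxc4, were named after their values were seen.

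**Figure D4:**
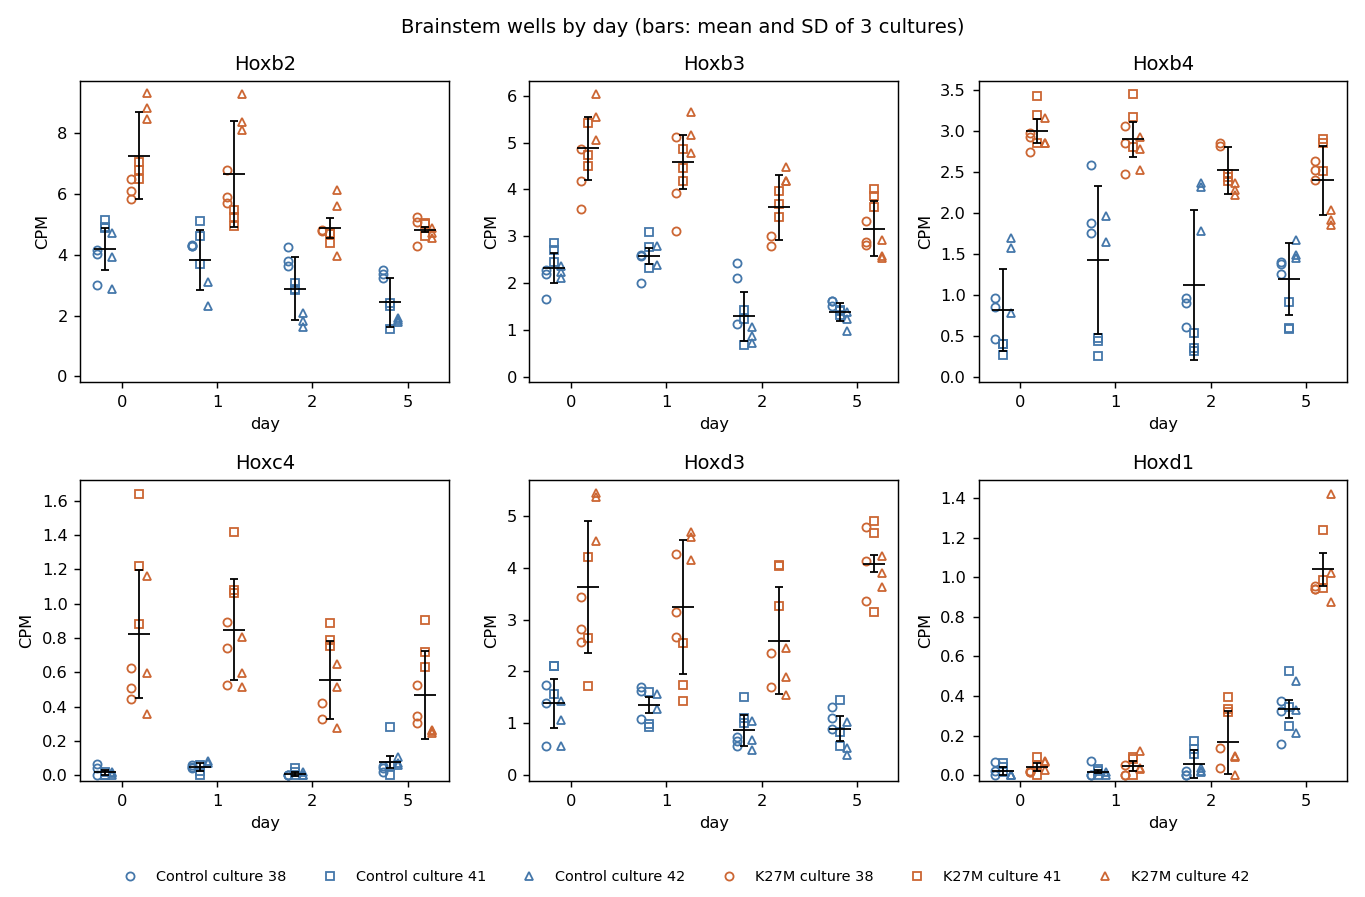
CPM of Hoxb2, Hoxb3, Hoxb4, Hoxc4, Hoxd3 and Hoxd1 in every brainstem well by day, with control wells in blue, K27M wells in orange, a shape for each culture and bars for the mean and SD of 3 cultures. Hoxb3 separates the genotypes on each day, Hoxc4 lies near 0 in controls, and Hoxd1 appears at day 5.

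The 3′ genes of cluster A rose less. Hoxa2 (chromosome 6, 52162417 to 52164831, minus strand) stood at 5.25, 6.63 and 6.96 CPM in control wells at day 2 and at 8.59, 9.23 and 12.9 in K27M wells, and Hoxa3 (52169062 to 52213336, minus strand) at 1.25, 1.81 and 3.09 and at 3.64, 4.75 and 5.39. The wells of both did not overlap at day 2 and overlapped on the other days. The log2 fold change of Hoxa2 was 0.50 (SE 0.14, adjusted p = 0.0067), 0.33 (0.075), 0.66 (0.00016) and 0.61 (0.00018) at days 0, 1, 2 and 5, and that of Hoxa3 was 0.72 (SE 0.22, adjusted p = 0.019), 0.52 (0.076), 1.28 (7.1e-06) and 0.84 (0.0016). None passed on summed counts, where the lowest adjusted p was 0.056, for Hoxa3 at day 2. The day 0 call of Hoxa2 was lost without culture 41 (adjusted p = 0.053) or culture 42 (0.11) and with passage as a covariate (0.068), that of Hoxa3 without culture 38 (0.057) or culture 42 (0.26), and the day 5 call of Hoxa3 without culture 38 (0.55, adjusted p = 0.078). Without culture 42 the day 2 value of Hoxa2 was 0.44 (adjusted p = 0.040).

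Hoxa4 (52189671 to 52191753, minus strand) stood at 1.99, 2.88 and 3.43 CPM in control wells and at 3.29, 4.03 and 4.70 in K27M wells at day 5, overlapping at the edge. Its log2 fold change was 0.40, 0.39, 0.46 and 0.55 (adjusted p = 0.059, 0.043, 0.014 and 0.0016), none passed on summed counts, and each call was lost without culture 38 (adjusted p = 0.10, 0.13 and 0.16 at days 1, 2 and 5), that of day 1 also under RLE scaling (0.052). Hoxa5 (52201754 to 52204587, minus strand) was called at day 5 alone, at 0.50 (adjusted p = 0.020), with wells at 2.29, 4.23 and 6.82 CPM in controls and 3.71, 6.29 and 9.37 in K27M cells. That value was 0.09 without culture 41 (adjusted p = 0.83).

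The promoters of 5 genes are shown, 4 whose levels separated genotypes or lines and that of Hoxa2, which holds a motif. The sequences are those of RefSeq for GRCm38.p6, from 250 bases before to 50 bases after the start, on the gene's own strand. Capitals mark each CG pair and each match to TGATNNAT, the letters of a Hox and Pbx joint site, sought on both strands.
Hoxa2, chr6:52164782-52165081, minus strand: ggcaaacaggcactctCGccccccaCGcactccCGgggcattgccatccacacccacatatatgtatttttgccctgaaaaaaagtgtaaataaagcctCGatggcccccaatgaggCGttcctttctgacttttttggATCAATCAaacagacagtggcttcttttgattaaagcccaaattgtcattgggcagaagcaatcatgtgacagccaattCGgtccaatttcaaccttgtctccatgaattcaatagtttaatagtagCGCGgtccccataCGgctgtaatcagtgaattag
Hoxc4, chr15:103034145-103034444, plus strand: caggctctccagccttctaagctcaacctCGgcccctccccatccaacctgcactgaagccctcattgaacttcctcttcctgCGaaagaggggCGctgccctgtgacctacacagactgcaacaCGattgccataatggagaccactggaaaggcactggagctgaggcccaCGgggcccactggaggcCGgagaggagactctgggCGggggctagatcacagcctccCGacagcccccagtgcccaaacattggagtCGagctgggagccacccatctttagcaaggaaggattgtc
Hoxa7, chr6:52218524-52218823, minus strand: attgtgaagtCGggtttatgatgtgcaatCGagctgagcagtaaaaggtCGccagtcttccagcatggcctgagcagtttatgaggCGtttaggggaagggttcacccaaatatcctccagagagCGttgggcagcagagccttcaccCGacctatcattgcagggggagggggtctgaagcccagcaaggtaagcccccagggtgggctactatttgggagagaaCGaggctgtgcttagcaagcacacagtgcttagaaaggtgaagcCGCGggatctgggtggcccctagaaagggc
Hoxd8, chr2:74704365-74704664, plus strand: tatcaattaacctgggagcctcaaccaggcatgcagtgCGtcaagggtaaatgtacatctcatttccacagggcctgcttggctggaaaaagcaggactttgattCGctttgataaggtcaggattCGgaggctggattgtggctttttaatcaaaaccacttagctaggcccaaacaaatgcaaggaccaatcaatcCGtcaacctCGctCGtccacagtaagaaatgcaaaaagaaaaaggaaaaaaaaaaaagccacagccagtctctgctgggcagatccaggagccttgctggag
Hoxd9, chr2:74697513-74697812, plus strand: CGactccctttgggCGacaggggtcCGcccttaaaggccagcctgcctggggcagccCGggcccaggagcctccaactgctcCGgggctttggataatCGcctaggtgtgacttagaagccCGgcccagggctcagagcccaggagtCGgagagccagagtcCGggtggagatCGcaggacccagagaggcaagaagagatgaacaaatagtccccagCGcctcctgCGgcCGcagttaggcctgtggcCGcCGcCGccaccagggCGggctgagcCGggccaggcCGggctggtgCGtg

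The motif matched 1 time in the Hoxa2 promoter and not in the other 4 windows. RefSeq gave windows for 22 of the 38 genes, 24 in all, of which 4 (16.7%; those of Hoxa2, Hoxb1 and Hoxb8 and one of Hoxd11) held it, against 8.85% of 32851 promoters. CG pairs numbered 9 in the Hoxa2, Hoxc4 and Hoxa7 windows, 6 in that of Hoxd8 and 20 in that of Hoxd9, with a median of 14.5 and a range of 4 to 45 over the Hox windows and a median of 7 over all promoters. The Hoxc4 window starts within the gene's annotated span, whose longer form begins further upstream. A match describes these letters alone.

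Hoxa7, Hoxd8 and Hoxd9, 3 genes of the trunk level, differed widely between control culture lines. Hoxa7 (chromosome 6, 52214491 to 52221854, minus strand) stood at 24.7, 27.4 and 27.6 CPM in the 3 wells of control culture 38 at day 1, at 14.6 and 16.4 in the 2 wells of culture 42 and at 0.889, 1.31 and 1.21 in culture 41. In K27M cells at day 1 its wells stood at 3.14, 4.13 and 5.23 CPM (lowest, median and highest), between the control lines. Hoxd8 (chromosome 2, 74704615 to 74707933, plus strand) stood at 14.1, 13.1 and 12.7 CPM in control culture 38 at day 1, at 8.18 and 10.0 in culture 42 and at 0.286, 0.686 and 0.427 in culture 41. Its K27M wells lay at 0.360 to 2.16 CPM over all days.

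Hoxd9 (chromosome 2, 74697727 to 74700208, plus strand), singled out after its values were seen, was at 1.06 to 1.73 CPM in control culture 38 at day 1, at 1.55 and 1.96 in culture 42 and at 0 in the 3 wells of culture 41. No K27M well exceeded 0.0765 CPM. Summed over wells, controls held 259, 393, 275 and 380 counts and K27M cells 6, 10, 7 and 13 at days 0, 1, 2 and 5. The wells overlapped until day 5, when all control wells, at 0.158 to 2.41 CPM, stood above the K27M wells. Hoxd9 reached the filter level in 20 control wells and 0 K27M wells, so that its calls lower in K27M, on each day over wells and at days 1, 2 and 5 on summed counts, lend no support and the counts stand as a description. Without culture 42 the calls at days 0 and 2 were lost (adjusted p = 0.064 and 0.078).

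Hoxa6, Hoxa7 and Hoxd8 were called lower in K27M at day 1 only. Their log2 fold change was -1.55 (SE 0.45, adjusted p = 0.0060), -1.48 (0.36, 0.00071) and -2.51 (0.53, 9.8e-05), and none passed on summed counts. Without culture 38, whose control wells were the highest that day, the values were -0.34 (adjusted p = 0.69), -0.25 (0.71) and -1.06 (0.30). Without culture 42, Hoxa7 was higher in K27M at day 0, at 1.44 (adjusted p = 0.0030), and so was Hoxd8, at 1.36 (0.042), so the direction of these genes turned with the culture left out.

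Passage differed with these lines. Control brainstem wells were taken at passage 3 to 8, with 13 of 35 wells at passage 6 or later, and K27M wells at passage 1 to 6, with 6 of 35. In control culture 42 at day 0, the well of passage 3 stood at 4.57 CPM for Hoxa7, 1.44 for Hoxd8 and 0.228 for Hoxd9, and the wells of passage 8 stood at 23.1 and 19.9, at 10.3 and 9.20, and at 1.87 and 1.65. Hoxa2 went the other way in those wells, from 12.2 CPM to 8.84 and 7.43. In control culture 38 the wells of passage 7 were those of day 1, and those of passages 4 and 5 were the other days, where Hoxa7 lay at 1.74 to 5.57 CPM. In K27M culture 42 at day 0 Hoxa7 stood at 4.81 CPM at passage 1 and at 4.71 and 5.20 at passage 5. Control culture 41, at passages 4 and 5, stayed under 2 CPM for Hoxa7 throughout. With passage as a covariate, Hoxa7 and Hoxd8 stayed lower at day 1 (adjusted p = 0.039 and 0.0057), and the call of Hoxa6 was lost (0.074). Passage, line and day are partly tied in this design, and the part of passage in these values was not tested beyond that fit.

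**Figure D5:**
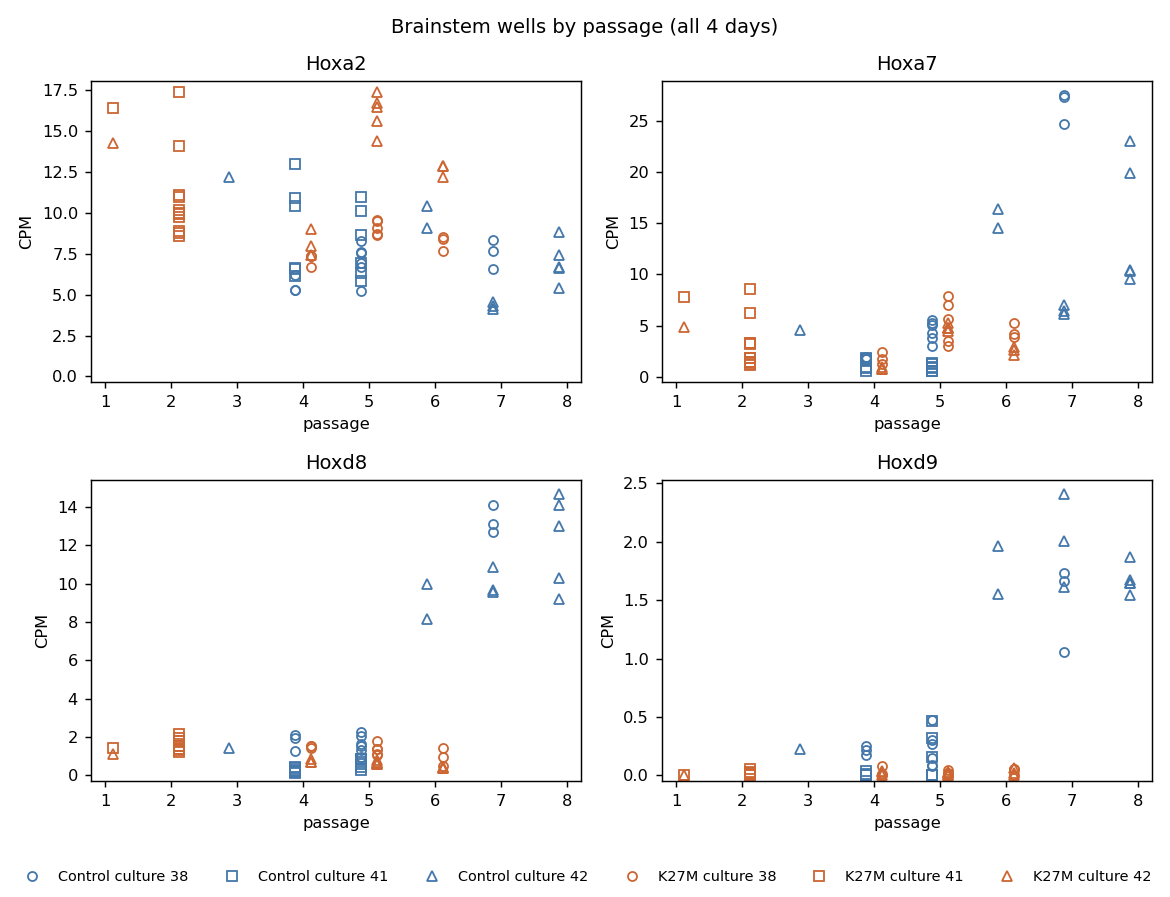
CPM of Hoxa2, Hoxa7, Hoxd8 and Hoxd9 in every brainstem well by passage number, with control wells in blue, K27M wells in orange and a shape for each culture. Control wells of passage 6 and later hold the highest values of Hoxa7, Hoxd8 and Hoxd9, and K27M wells stay at 0.0765 CPM or less for Hoxd9.

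The paralogs 5 to 8 of cluster B moved with the day. Hoxb5, Hoxb6, Hoxb7 and Hoxb8 are trunk and cervical genes and stayed under 1 TPM, and they were named after their values were seen. Hoxb6 stood at 0.0357, 0.261 and 1.20 CPM in control wells and at 0.725, 1.44 and 2.10 in K27M wells at day 0, and at 0.0934, 0.159 and 0.290 and at 0.0611, 0.235 and 0.363 at day 5. The genotypes thus overlapped little at day 0 and widely at day 5. Over wells all 4 were called higher in K27M at day 0, none on summed counts, and Hoxb8 was called lower at days 1 and 5.

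In telencephalic cells few Hox differences passed. No Hox gene was called between K27M and control at day 0, 2 were higher at day 1, 1 was lower at day 2 and 1 was higher at day 5, against 15.7%, 28.8%, 32.3% and 22.3% of genes tested. On summed counts 0, 1, 0 and 0 were called, against 0.335%, 4.41%, 4.6% and 1.99%. At an unadjusted p under 0.05 edgeR gave 1 Hox gene at day 0 over wells and 1 each at days 0, 2 and 5 on summed counts, and DESeq2 called 0, 0, 0 and 1 over wells on the 4 days. The day 1 calls were Hoxb2, with 0 counts in control wells and 7 in K27M wells, and Hoxd4, with 0 and 6. The day 2 call was Hoxa4, with 5 and 0 counts, and the day 5 call Hoxa3, with 5 and 20. Of the 72 telencephalic wells, 1 reached the level of the filter on low counts, for Hoxa3.

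The K27M effect was also compared between regions. At days 0, 1, 2 and 5, the fitted K27M effect was higher in brainstem for 0, 1, 2 and 1 Hox genes and lower for 0, 2, 1 and 2, against 7.25%, 35.8%, 14.1% and 29.7% of genes, and on summed counts 0, 1, 0 and 0 were called, against 0.00435%, 9.18%, 0.922% and 4.81%. At an unadjusted p under 0.05 edgeR gave 3 at day 0 over wells and 2, 2 and 5 at days 0, 2 and 5 on summed counts, and DESeq2 called 1, 2, 2 and 3 over wells. No telencephalic well reached the filter level for the 6 genes called, so these fits set brainstem folds against values near 0 that depend on what is added to zero counts, and they lend no support. The calls rested on the cultures, with 0 left at day 1 without culture 41, 0 at day 2 without culture 38 and 0 at day 5 without culture 42.

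Most Hox genes of cluster A fell over differentiation. Over wells Hoxb4, Hoxc4, Hoxc5, Hoxc6, Hoxd1, Hoxd4 and Hoxd9 rose in controls. In K27M cells Hoxd1 and Hoxd4 rose, and Hoxc4, Hoxc5 and Hoxc6 fell. The calls of Hoxc4, Hoxc5, Hoxc6 and Hoxd9 carry the limit of the filter on low counts given above. Between day 0 and day 5, 7 Hox genes rose and 11 fell in control brainstem cells, where 75.6% of genes tested were called, and 7 and 7 did on summed counts, where 62% were. With culture 38 alone 3 rose and 8 fell in controls and 2 and 8 in K27M cells, and without it 6 and 9, and 2 and 14. The share of all genes called in these fits is not given here. In K27M brainstem cells 2 rose and 14 fell against 72.3%, and 2 and 9 on summed counts against 55.1%. On summed counts Hoxa9, Hoxc8 and Hoxc9, which were tested there alone, were among the 7 that rose in controls. Their highest group means, 0.0234, 0.0266 and 0.0255 TPM, were those of control brainstem cells at day 5, so these calls lend no support.

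Hoxd1 and Hoxd4 rose in both genotypes. Hoxd1 went from a median well of 0.0179 CPM at day 0 to 0.331 at day 5 in controls and from 0.0290 to 0.956 in K27M cells (log2 fold change 3.88, SE 0.48, adjusted p = 1.9e-12, and 4.65, 0.42, 3.3e-19), with the day 0 values resting on 11 and 23 counts. All wells of day 5 stood above all wells of day 0 for Hoxd1. Hoxd1 passed the filter on low counts with the K27M wells of day 5, so its calls between days lend no support either. Hoxd4 went from a median of 2.33 to 4.06 CPM in controls and from 2.76 to 4.15 in K27M cells (0.70, SE 0.18, adjusted p = 0.00025, and 0.63, 0.18, 0.00088), with wells that overlapped.

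Hoxa5 fell from a median of 10.4 to 4.23 CPM in controls and from 13.3 to 6.29 in K27M cells, a log2 fold change of -1.38 (SE 0.18, adjusted p = 2.1e-11) and -1.22 (0.18, 1.1e-09). Hoxa6 and Hoxa7 fell by 1.87 and 1.34 on the log2 scale in controls and by 2.45 and 2.43 in K27M cells, and Hoxa2 by 0.79 and 0.68. Hoxb2 and Hoxb3 fell by 0.78 and 0.73 in controls and by 0.60 and 0.63 in K27M cells. Hoxd3 fell by 0.60 in controls (adjusted p = 0.020) and gave 0.16 in K27M cells (0.54), and the difference between these did not pass (0.76, SE 0.33, adjusted p = 0.10).

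The first day of differentiation gave fewer calls. From day 0 to day 1, 9 Hox genes rose and none fell in control brainstem cells against 42.7% of genes, and 1 rose on summed counts, which was Hoxc6, against 16.2%. At day 1 Hoxc6 averaged 0.254 CPM in control culture 38, 0 in culture 41 and 0.0101 in culture 42, so its call rests on few counts of 1 line. Without culture 38, 1 rose and 1 fell. In K27M brainstem cells none rose and 7 fell against 46.2%, and none was called on summed counts against 16.4%, where edgeR gave 2 at an unadjusted p under 0.05. DESeq2 called 6 over wells, and without culture 41 edgeR called 1. The rise of controls took in Hoxa7, Hoxd8 and Hoxd9, and the control wells of culture 38 were of passage 5 at day 0 and of passage 7 at day 1.

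The change from day 0 to day 5 itself differed between genotypes for 6 Hox genes, all with a lower value in K27M, against 17.2% of genes, and for none on summed counts, against 0.543%, where 6 had an unadjusted p under 0.05. DESeq2 called 5 over wells, and edgeR called 3 without culture 41 and 3 with culture 38 alone. They were Hoxb6, Hoxb7, Hoxb8, Hoxc4, Hoxc5 and Hoxc6. All 6 stood higher in K27M cells at day 0 over wells, and their control counts at day 0 ranged from 1 to 453.

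Of 37 listed regulators and cofactors of Hox genes, 31 could be tested, and in brainstem 10, 12, 15 and 15 were higher in K27M at days 0, 1, 2 and 5 and 0, 3, 0 and 2 were lower, against the 11.3%, 28.8%, 26.1% and 38.6% of all genes called. On summed counts 3, 6, 7 and 11 were higher and none was lower, against 1.32%, 4.37%, 3.79% and 11.5%. In telencephalon, against 15.7%, 28.8%, 32.3% and 22.3%, 7, 12, 14 and 11 of the same list were higher in K27M and 1 was lower each day. There 1, 2, 5 and 5 were higher on summed counts, against 0.335%, 4.41%, 4.6% and 1.99%. Pbx3, a homeodomain partner of Hox proteins, stood at 16.4, 18.2 and 23.6 CPM in control wells at day 0 and at 42.3, 46.1 and 58.4 in K27M wells, and its wells did not overlap. The log2 fold change of Pbx3 was 1.33, 1.19, 1.58 and 1.32 on the 4 days, each with SE 0.07, and passed on summed counts each day (highest adjusted p = 5.4e-08). Pbx3 was also higher in K27M telencephalic cells, by 0.73, 1.05, 1.16 and 0.96 on the log2 scale, where Hox genes were nearly absent.

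Genes of retinoic acid, the signal that switches on anterior Hox genes in the embryo, were among the named regulators. Aldh1a2, which makes retinoic acid, was higher in K27M brainstem cells at days 1 and 2 by 2.70 (SE 0.46) and 2.68 (0.49) on the log2 scale, with a highest well of 0.694 CPM. Cyp26b1, which breaks retinoic acid down, was higher at days 1 and 2 by 1.40 (SE 0.34) and 1.44 (0.29), and stood at 0.993 to 2.64 CPM in control wells at day 5 and at 5.28 to 9.98 in K27M wells, without overlap. Rarb, a retinoic acid receptor and a gene that retinoic acid induces, stood at 4.14, 7.35 and 11.9 CPM in control wells at day 5 and at 15.2, 24.3 and 31.8 in K27M wells (1.62, SE 0.22, adjusted p = 8.5e-10).

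Among the other regulators named, Rara, another retinoic acid receptor, was higher in K27M brainstem cells at days 0 and 1 by 0.70 (SE 0.14) and 0.88 (0.15), Pbx2 at day 0 by 0.48 (0.06) and Meis2, a cofactor, at day 2 by 1.12 (0.13).

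Between regions in controls the regulators went both ways. Of 31 tested over wells, 9, 15, 8 and 10 were higher and 7, 6, 6 and 8 lower in brainstem. Of all genes tested 49%, 60.3%, 51.4% and 53% were called. On summed counts 5, 9, 3 and 5 were higher and 4, 4, 4 and 6 lower, against 24.5%, 36.7%, 24.3% and 25.6%. The list thus stood near these shares, and the genes named next describe themselves alone. Rarb was higher in control brainstem than in control telencephalon at days 0, 1 and 2 by 1.38 (SE 0.24), 2.62 (0.25) and 1.43 (0.25). Meis1, a cofactor of Hox proteins, was higher there at day 0 by 0.94 (SE 0.11), Kmt2a at day 0 by 0.99 (0.20), Pbx3 at day 5 by 0.60 (0.08), and Suz12, a Polycomb subunit, at days 1, 2 and 5 by 0.78, 0.65 and 0.66 (SE 0.07 each). Rxra, a partner of retinoic acid receptors, gave -0.78, -0.60 and -0.54 at days 0, 2 and 5 (SE 0.08 each), Cyp26b1 -1.56 (SE 0.37) and Pbx2 -0.68 (0.07) at day 1, and Meis2 -0.84 (0.13) and -0.83 (0.14) at days 2 and 5, all lower in brainstem. Gbx2, a factor of the anterior hindbrain, was higher in K27M than in control brainstem cells at day 5 by 2.47 (SE 0.34, adjusted p = 1.7e-09).

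The 4 clusters also held 41 other annotated genes, 38 of them noncoding. Of the noncoding genes 23 had a count and 8 could be tested. Over wells 3, 5, 4 and 6 were higher in K27M brainstem cells at days 0, 1, 2 and 5 and 1 was lower at day 1. Of all genes tested 11.3%, 28.8%, 26.1% and 38.6% were called. On summed counts 0, 2, 0 and 1 were higher, against 1.32%, 4.37%, 3.79% and 11.5%. Gm15050, an antisense RNA gene of cluster A (chromosome 6, 52172881 to 52174059, plus strand), averaged 0.829 ± 0.432, 0.642 ± 0.179, 0.489 ± 0.340 and 0.857 ± 0.492 TPM in controls and 1.35 ± 0.334, 1.04 ± 0.368, 0.977 ± 0.285 and 2.25 ± 0.675 in K27M cells. Its log2 fold change was 0.85 (SE 0.23, adjusted p = 0.0059), 0.74 (0.24, 0.015), 0.99 (0.24, 0.00088) and 0.87 (0.22, 0.0010), and none passed on summed counts. The 7 miRNA precursors of the clusters had no count.

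Marker lists of other cells and regions are given for K27M against control brainstem cells, where the Hox genes were compared. Over all genes tested, 11.3%, 28.8%, 26.1% and 38.6% were called at days 0, 1, 2 and 5. On summed counts 1.32%, 4.37%, 3.79% and 11.5% were. The summed CPM of 8 vascular markers averaged 2.55 to 5.11 in the control groups and 10.9 to 12.7 in the K27M groups, with 2 of 6 tested markers higher each day and 0, 0, 1 and 2 lower, and 0, 1, 2 and 2 higher and 0, 0, 0 and 1 lower on summed counts. Fibroblast markers averaged 1.06 CPM in controls and 5.58 in K27M cells at day 0, with 5 of 8 higher and 1 lower, and 1 and 0 on summed counts. The 8 markers of myelinating oligodendrocytes summed to 56785 CPM in controls and 35221 in K27M cells at day 5, with 0 higher and 2 lower, a share of the list under the 38.6% of all genes called that day, and none on summed counts. Those of astrocytes summed to 1408 and 2408, with 2 of 8 higher, and 1 on summed counts. Of 7 tested neuron markers 1, 1, 4 and 4 were higher at days 0, 1, 2 and 5 and 0, 2, 0 and 0 lower, and 0, 1, 3 and 2 were higher on summed counts. Of 8 OPC markers 5 were lower at day 1, and 2 on summed counts.

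Of 9 telencephalic factors 7 could be tested. At days 0, 1, 2 and 5, 3, 5, 2 and 5 were lower in K27M brainstem cells and none was higher. Of all genes tested 11.3%, 28.8%, 26.1% and 38.6% were called. On summed counts 1, 1, 2 and 4 were lower, against 1.32%, 4.37%, 3.79% and 11.5%. Group means of the sum ran from 3.45 to 7.98 CPM in controls and from 0.742 to 1.36 CPM in K27M cells. Of 15 midbrain and hindbrain factors 9 could be tested, and 3, 2, 4 and 7 were higher and 2 were lower each day, against the same shares. On summed counts 1, 1, 1 and 4 were higher and 0, 1, 1 and 1 lower. Among those lower was En1, a factor of the midbrain and hindbrain border chosen after its values were seen, which averaged 0.956 to 1.84 CPM in the control groups and 0.0974 to 0.436 in the K27M groups and was lower over wells on each day (adjusted p = 0.0036, 0.00031, 5.5e-07 and 1.1e-05) and on no day on summed counts (lowest adjusted p = 0.054). The part of these lists in the Hox differences was not tested.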

How the data were processed

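RNA was taken from 142 wells of cultured mouse OPCs with a stranded total RNA kit and sequenced in pairs. The authors quantified transcripts with Salmon 1.10.1 against mm10 and corrected for sequence and GC bias. The deposited files hold, per library and transcript, an estimated count, a TPM value and an effective length in bases, with no pooling of replicates. Depth was 26.6 M to 455 M estimated counts per library, and the count limits the precision of genes near 0.

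Transcripts were summed to genes by a GENCODE annotation of GRCm38, another release than the authors used, which matched 139821 of 141084 transcripts. The rest held 0.252% to 0.377% of counts. Estimated counts were rounded to whole numbers. CPM values use library sizes scaled by TMM, and the mean ± SD of a group is over its 3 cultures. Differences were tested with edgeR 4.0.16 (quasi-likelihood, R 4.3.3) over all wells in 25 comparisons, with the culture within its region as a block, a filter on low counts that left 19769 genes, and Benjamini-Hochberg adjustment over all of them at a threshold of 0.05. With that block, a comparison of brainstem with telencephalon is the difference fitted between the culture 38 lines of the regions. SE values were derived from the fold change and its F value. The same test on counts summed per line and day covered 23003 genes. Alternatives were RLE scaling, no filter, an offset for effective length, passage as a covariate, a replicate block, leaving out each culture, culture 38 alone, DESeq2 1.42.0 with and without a minimum fold of 1.1 and, chosen after depths were seen, leaving out the deepest library. On simulated counts for K27M against control brainstem cells at day 5, over 19597 genes, the test called 49 of 100 genes changed 1.5-fold and 94 of 100 changed 3-fold. Each simulated well was drawn on its own, with no spread between lines beyond the culture block. These rates therefore do not cover the differences between lines seen in the data.

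The Hox genes and all lists were chosen with earlier results of these data known. Hox genes with a mean of at least 1 TPM in any group were described, 11 in all, as were noncoding cluster genes at that level. Up to 4 regulators per comparison were selected by the largest change among those called on wells and on summed counts with the same sign in the 3 cultures, and the text gives those of K27M against control in brainstem and of the regions in controls. Genes named outside this rule are said to be. 1 further gene that matched the symbol rule is not reported here. Tables were made with Python 3.11.15, pandas 2.3.3 and numpy 2.4.6.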

Additional observations from a re-analysis of the deposited data

Results flagged for a closer look

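Single wells of brainstem groups stood apart from the others of their group by Dixon's test, which chance meets in about 1 in 20 groups, and 120 groups of wells were examined. Among control wells, Hoxc4 was at 0.0445 CPM in a well of culture 41 at day 2, next to 0.0215, and at 0.280 CPM in a well of culture 41 at day 5, next to 0.106. Hoxd1 was at 0.0710 CPM in a control well of culture 38 at day 1, next to 0.0317. Among K27M wells, Hoxd4 was at 3.44 CPM in a well of culture 42 at day 0, next to 2.93, and Hoxd9 at 0.0595 CPM in a well of culture 42 at day 2, next to 0.0250. The low values rest on few counts.

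For 6 Hox genes the fitted K27M effect in brainstem differed from that in telencephalon past the threshold in edgeR on at least 1 day. No telencephalic well reached the filter level for these 6, and telencephalic controls held 0 counts of Hoxb2 and of Hoxd4 at day 1. The fitted values therefore depend on what is added to zero counts and do not show that the effects differ. For Hoxc4 the difference of log2 effects was 4.43 (adjusted p = 0.025) at day 1, 5.40 (0.020) at day 2 and 2.63 (0.027) at day 5. For Hoxd9 it was -5.03 (SE 1.78, adjusted p = 0.042) at day 2 and -5.06 (1.20, 0.00050) at day 5. It was -2.28 (SE 0.78, adjusted p = 0.031) for Hoxb2 and -2.71 (0.78, 0.014) for Hoxd4 at day 1, 3.11 (0.76, 0.038) for Hoxa4 at day 2 and -2.91 (0.86, 0.0055) for Hoxb8 at day 5. Of these, Hoxd4 alone passed on summed counts (adjusted p = 0.046).

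The change from day 0 to day 5 differed between K27M and control brainstem cells for 6 genes, as a log2 difference of -1.65 for Hoxb6 (adjusted p = 0.039), -1.54 for Hoxb7 (0.032), -2.83 for Hoxb8 (0.00036), -2.81 for Hoxc4 (6.5e-05), -4.20 for Hoxc5 (1.0e-05) and -5.22 for Hoxc6 (0.00045). Of these, Hoxc4, Hoxc5 and Hoxc6 passed the filter mostly through K27M wells. None passed on summed counts, where the lowest adjusted p was 0.083, for Hoxc4.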

How the results depend on the processing

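The calls of Hox genes between regions stayed within 1.5 times their number under every alternative run. Summing counts per line and day left 3, 2, 4 and 7 calls between K27M and control brainstem cells at days 0, 1, 2 and 5, 1, 0 and 0 in telencephalon at days 1, 2 and 5, 1, 0 and 0 for the K27M effect between regions on those days, 1 and 0 from day 0 to day 1 in control and K27M cells, and 0 for the K27M change of the day 5 difference. There n falls to 3 cultures. Without a filter on low counts there were 24 for K27M in brainstem at day 5, 0 and 0 in telencephalon at days 2 and 5, 1, 1 and 10 for the K27M effect between regions at days 0, 2 and 5, and 30 from day 0 to day 5 in controls, since all 38 genes were then tested. Culture 38 alone gave 0, 0 and 2 in telencephalon and 0, 0 and 1 for that effect between regions at days 1, 2 and 5, 11 and 10 from day 0 to day 5 in control and K27M cells, and 3 for the K27M change. DESeq2 gave 0 and 0 in telencephalon at days 1 and 2 and 1 for that effect at day 0. With a minimum fold of 1.1 it gave 0, 0 and 0 in telencephalon at days 1, 2 and 5, 2 for that effect at day 0, and 4 and 2 from day 0 to day 1 in control and K27M cells. Passage as a covariate gave 2 in telencephalon at day 5. The cause of these shifts was not tested. Apart from summed counts, the share of all genes called under each alternative is not given here.

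Leaving out each culture gave 1 to 2, 0 to 1 and 0 to 1 calls in telencephalon at days 1, 2 and 5, 0 to 1, 0 to 3, 0 to 3 and 0 to 3 for the K27M effect between regions at days 0, 1, 2 and 5, 2 to 11 and 1 to 8 from day 0 to day 1 in control and K27M cells, and 3 to 7 for the K27M change. For single genes, the log2 change of K27M brainstem cells was run under the alternatives for 15 of the 21 tested, and turned sign for 6 of these 15. For Hoxa5 at day 1, leaving out each culture gave -0.66 to 0.20. For Hoxa6 it gave -0.33 to 1.55 at day 0, -0.80 to 0.67 at day 2 and -1.40 to 0.87 at day 5, and passage gave 0.18 at day 2 and 0.30 at day 5, where summed counts gave 0.11 and DESeq2 0.07 with or without the minimum fold. For Hoxa7 it gave -0.74 to 1.44, -1.24 to 0.43 and -1.59 to 0.52 at days 0, 2 and 5. For Hoxd1 it gave -0.05 to 1.44 at day 0, and culture 38 alone gave -0.54 and -0.24 at days 0 and 1. For Hoxd4 it gave -0.28 to 0.40 at day 1 and -0.08 to 0.48 at day 5, and at day 1 the length offset gave 0.09, summed counts 0.01 and passage 0.01. For Hoxd8 it gave -1.87 to 1.36, -2.97 to 1.17 and -2.17 to 0.34 at days 0, 2 and 5, and passage gave 0.17 at day 0. Over these 15 genes, 4 days and their alternatives, 662 values kept their direction and side of the threshold.

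The well numbers did not pair the samples, since over 69 pairs of same-numbered wells the correlation ran from -0.401 to 0.328, with 18 over 0.1. With the replicate block, 14, 12, 13 and 13 Hox genes were called between K27M and control brainstem cells, and 6 from day 0 to day 1 in K27M cells.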
